A study of Mus musculus with 4 samples.

Results

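The kinesin genes were taken from the deposited expression table as every row that GENCODE release M21 annotates as protein coding and whose symbol is Kif followed by a digit. The rule gave 37 of the 20065 genes in the table. Of these, 11 act in mitosis and cytokinesis, 13 carry cargo along microtubules, 12 have other roles, and Kif1bp, which matches the rule by its name, encodes a kinesin binding protein and not a motor. Kif2b and Kif12 meet the rule in the annotation and were not analysed here. The symbol rule also leaves out motors with other names, and Cenpe and Kifc1, a pair of mitotic motors, are given below for comparison.

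RNA was sequenced from cultured satellite cells, the stem cells of skeletal muscle, which came from limb and trunk muscles of adult mice on a C57BL/6 background. The control group (2 libraries) was Pax7CreERT2/Prmt5+/loxP and the Prmt5sKO group (2 libraries) was Pax7CreERT2/Prmt5loxP/loxP, and both had received tamoxifen (TAM), which the study's methods describe as its 4-hydroxy form added to the cultured cells. Both groups therefore carried the tamoxifen-inducible Cre from the Pax7 locus, which is active in satellite cells, and the controls carried 1 floxed Prmt5 allele. Prmt5 encodes an arginine methyltransferase that symmetrically dimethylates histones and splicing proteins. The labels do not say whether the 2 libraries of a group came from separate animals or cultures, and the p-values measure only the spread between these libraries.

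The file holds group means, from which the whole read count of every gene in each library was recovered, and the libraries of each group are named here by their depth. By gene-assigned reads the controls reached 14436914 (deeper) and 13240754 (shallower), and Prmt5sKO reached 20047430 and 16190414. The targeted gene Prmt5 stood at 2273 and 2906 normalized counts in the controls, against 244 and 202 after deletion. Normalized counts are reads scaled by the trimmed mean of M-values (TMM). Values are always given in the order deeper, then shallower library. The libraries of a group did not agree in every respect. Xist, which is transcribed from the inactive X chromosome of female cells, had 8668 and 23.3 normalized counts in the controls and 8.15 and 5655 in Prmt5sKO, so the 2 libraries of a group were not repeats of the same cells. Summed markers of differentiated muscle (13 genes) stood at 50286 and 96298 in the controls and at 46064 and 419848 in Prmt5sKO. All 13 were highest in the shallower Prmt5sKO library. For 9 of 13 both Prmt5sKO libraries exceeded either control, which held for 25.2% of the 16212 genes tested below. Ttn held most of the sum in the controls and in the deeper Prmt5sKO library. Without it, a choice made after its values were seen, the other 12 summed to 11137 and 6265 in the controls and to 17637 and 248836 in Prmt5sKO. Myog, which encodes the differentiation factor myogenin, had 1436 and 1189 in the controls and 3707 and 19508 in Prmt5sKO. Cdkn1a, which encodes the cell cycle inhibitor p21, had 3379 and 2057 against 8358 and 15703. The 8 satellite cell markers summed to 52982 and 45022 in the controls and to 46250 and 76597 in Prmt5sKO, with none at 0. Of these, 5 were highest in the shallower Prmt5sKO library, among them Des (32171). Pax7 was lowest in that library, with 3079 and 3002 in the controls and 3664 and 2570 in Prmt5sKO. The 6 fibroblast markers summed to 13525 and 6202 in the controls and 14289 and 16811 in Prmt5sKO, with 1 marker at 0 in each of 3 libraries. Col3a1 held most of each sum, with 13308 and 5774 against 13988 and 16357. The other fibroblast markers were low and had no common direction. Their highest value was 328 (Col1a1 in the shallower Prmt5sKO library), and Pdgfra had 38.4 and 44.1 against 43.7 and 17.1. Markers of other cell types were low, and their sums were lower in both Prmt5sKO libraries. Immune markers (3 of 5 in the table, without Ptprc and Adgre1) summed to 122 and 126 in the controls and 65.9 and 101 in Prmt5sKO, with 1 of 3 lower in both. That marker was Cd68, with 99.4 and 112 against 54.8 and 50.3. Itgam and Csf1r overlapped between groups and were highest in the shallower Prmt5sKO library (22.1 and 28.2). Endothelial markers (4) summed to 124 and 163 against 90.4 and 56.3, with 3 of 4 lower in both. Tek, the exception, was higher in both, with 13.6 and 27.2 against 43.0 and 29.2. Glial and neuronal markers (4 of 6, without Rbfox3 and Syt1) summed to 52.0 and 42.8 against 28.2 and 38.2, with 2 of 4 lower in both. Of the genes tested below, 23.6% were lower in both. Cdh5, Sox10 and S100b, counted here as lower, were too low to be tested. The part of these cell types in the kinesin levels was not tested.

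Kinesins are motors that hydrolyse ATP to walk along microtubules or to take them apart at their ends. Mitotic kinesins build and position the spindle, move chromosomes and cut the daughter cells apart, and their mRNAs are made mainly in the G2 and M phases of the cell cycle. Transport kinesins carry mitochondria, vesicles and other cargo toward the cell periphery in dividing and non-dividing cells alike, and muscle cells also use them to space their nuclei. In a bulk library, fewer cells of a kind and less RNA per cell cannot be told apart.

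Many promoters of late cell cycle genes hold a cell cycle genes homology region, whose core is TTTGAA, close to the transcription start, often with a CCAAT box upstream. RefSeq promoters (GRCm38.p6), from 250 bases before to 50 bases after the start, were at hand for 30 of the 37 genes, Kif1bp under its name Kifbp. Those of Kif5a, Kif5b, Kif13b, Kif19a, Kif20a, Kif21b and Kif28 were not analysed here. TTTGAA on either strand (TTCAAA on the other) was present in 9 of 10 mitotic kinesin genes, 1 of 10 transport kinesin genes and 2 of 9 of the others, and in 17.9% of all 32851 RefSeq promoters. Within 50 bases either side of the start, a window chosen after the positions were seen, it was present in Kif11, Kif15, Kif22, Kif23, Kif18b, Kif20b and Kif4, that is 7 of 10 mitotic kinesin genes, in Kif1a among 10 transport kinesin genes and in Kif26b among the 9 others, against 4.94% of all promoters. The 100 bases before and the first 30 bases after the start are shown for the 7 mitotic kinesin genes with the motif near the start, for Kif18a, the mitotic kinesin gene with a RefSeq promoter in which these letters were not found in the window, and for Kif3b, a transport kinesin gene without them. TTTGAA or its reverse complement is in capitals, and all sequences read 5′ to 3′ in the direction of the gene.
Kif11 (chr19:37376282-37376411, + strand): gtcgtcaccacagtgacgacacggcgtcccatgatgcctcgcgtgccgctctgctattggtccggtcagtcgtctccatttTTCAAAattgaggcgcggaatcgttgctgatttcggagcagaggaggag
Kif15 (chr9:122950981-122951110, + strand): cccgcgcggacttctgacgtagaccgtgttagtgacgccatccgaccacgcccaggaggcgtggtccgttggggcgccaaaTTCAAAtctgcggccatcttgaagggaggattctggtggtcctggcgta
Kif22 (chr7:127042391-127042520, - strand): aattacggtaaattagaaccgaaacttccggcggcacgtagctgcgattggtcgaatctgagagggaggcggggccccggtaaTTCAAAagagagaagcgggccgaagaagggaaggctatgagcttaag
Kif23 (chr9:61946770-61946899, - strand): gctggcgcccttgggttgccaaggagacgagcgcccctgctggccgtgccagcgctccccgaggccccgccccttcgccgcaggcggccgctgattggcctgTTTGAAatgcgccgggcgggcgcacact
Kif18b (chr11:102925095-102925224, - strand): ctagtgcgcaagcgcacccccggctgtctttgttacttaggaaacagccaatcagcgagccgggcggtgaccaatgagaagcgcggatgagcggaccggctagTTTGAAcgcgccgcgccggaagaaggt
Kif20b (chr19:34922258-34922387, + strand): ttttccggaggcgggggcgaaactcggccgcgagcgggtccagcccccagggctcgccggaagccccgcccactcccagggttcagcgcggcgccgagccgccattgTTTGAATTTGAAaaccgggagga
Kif4 (chrX:100625965-100626094, + strand): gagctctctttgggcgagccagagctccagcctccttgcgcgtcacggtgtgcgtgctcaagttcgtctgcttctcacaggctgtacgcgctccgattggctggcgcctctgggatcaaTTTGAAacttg
Kif18a (chr2:109280638-109280767, + strand): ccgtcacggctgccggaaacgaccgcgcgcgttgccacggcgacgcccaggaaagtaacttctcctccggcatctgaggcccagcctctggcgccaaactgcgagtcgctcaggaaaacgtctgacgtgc
Kif3b (chr2:153291316-153291445, + strand): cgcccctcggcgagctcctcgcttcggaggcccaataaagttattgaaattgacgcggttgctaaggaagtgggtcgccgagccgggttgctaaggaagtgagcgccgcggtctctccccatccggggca

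In Kif11 and Kif15 the motif stood at the same place, from base -19 to base -14 relative to the RefSeq start, and in Kif22 from -17 to -12. This shared place holds for the RefSeq starts only. By the GENCODE gene starts the motif lies before the start in Kif11 and after it in Kif15. In Kif23, Kif18b and Kif4 it began 3, 4 and 20 bases after the start, and Kif20b had a pair of copies back to back from base 8 to base 19. Kif14 and Kif2c held it further upstream, from -228 to -223 and from -103 to -98. The RefSeq starts of Kif14, Kif2c, Kif15, Kif22 and Kif4 lie inside the gene as GENCODE draws it. CCAAT on either strand was present in 6 of 10 mitotic, 3 of 10 transport and 4 of 9 other kinesin genes and in 37.4% of all promoters. GGCGGGA on either strand, a form of the E2F site, was present in 1, 2 and 3 genes of the same classes and in 11.3% of all promoters. None of the 3 motifs lies within another. A match is a string of letters and was not tested as a binding site.

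The study compared the groups to find the genes whose expression depends on Prmt5. Of the 37 kinesin genes, 36 had a mean normalized count of at least 5 and were tested with limma-voom. Adjusted p-values are those of Benjamini and Hochberg over the 16212 genes tested. With limma-voom no kinesin gene and no gene at all passed an adjusted p of 0.05, and 0 genes passed in limma-trend as well. The study, which used another method (DESeq2), did report genes with raised or lowered expression at a false discovery rate under 0.05. The smallest adjusted p was 0.206 among the kinesin genes (Kif15) and 0.193 among all genes. At an unadjusted p under 0.05 there were 14 kinesin genes, 11 lower and 3 higher in Prmt5sKO, against 13% of all genes tested (2101 genes; 6.95% lower and 6.01% higher). Without the shallower control library the number of such kinesin genes was 4. With the deeper library of 1 group paired with the shallower of the other as a replicate block, a pairing that the labels do not give and that joins the Xist-high libraries and the Xist-low libraries, 3 kinesin genes (Kif15, Kif2a and Kif22, all lower) were called at an adjusted p of 0.05 and a 2-fold change, against 2.13% of all genes (0.968% lower), and without the deeper Prmt5sKO library Kif26b was, against 3.07%. The differences below are therefore descriptions of 4 libraries, and 2 against 2 libraries cannot reach a two-sided exact permutation p under 0.333.

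The mitotic kinesins were lower in Prmt5sKO. All 11 had a negative log2 fold change (Prmt5sKO over control), from -1.67 for Kif15 to -0.53 for Kif18b, with a median of -0.83 (1.78-fold lower) against a median of 0.02 over all genes tested. In 10 of 11, all but Kif20b, both Prmt5sKO libraries lay below both control libraries, which held for 23.6% of all genes tested. An unadjusted p under 0.05 was found for 9 of 11, all but Kif18a and Kif20b. At least 2-fold lower were Kif15, Kif22, Kif14 and Kif4, which is 4 of 11 against 9.05% of all genes. Adjusted p-values ran from 0.206 to 0.444 (limma-voom).

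**Figure D1:**
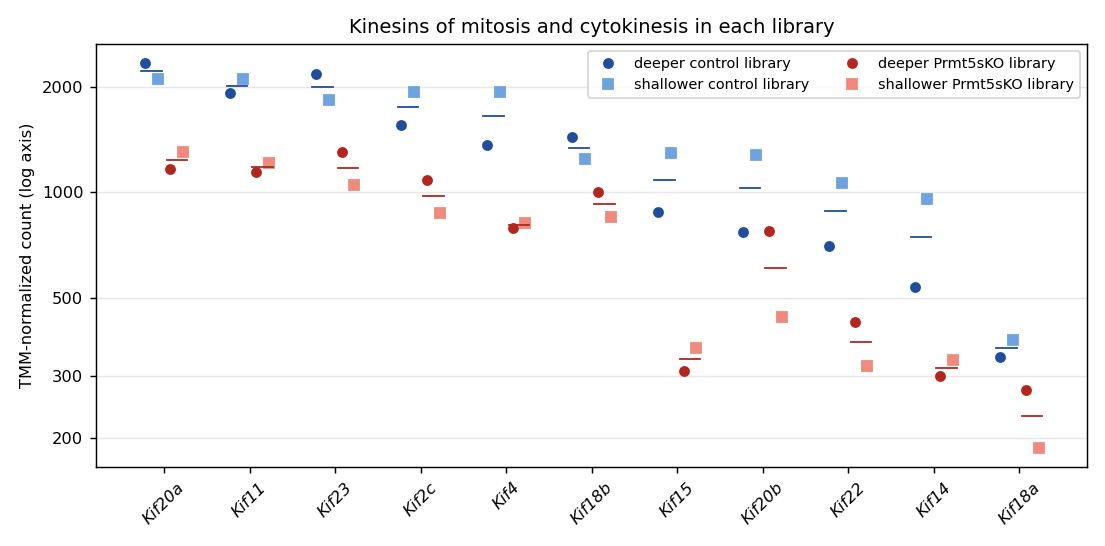
TMM-normalized counts (log axis) of the 11 mitotic kinesin genes in each of the 4 libraries, ordered by control level, with a short line at the mean of each group. The Prmt5sKO points lie below both control points for every gene except Kif20b, whose deeper Prmt5sKO library (776) lies beside the deeper control library (773).

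Kif11 and Kif15 encode the plus-end-directed motors that push the spindle poles apart, Kif11 (also called Eg5) to form the bipolar spindle and Kif15 to hold it. Kif11 (ENSMUSG00000012443, chr19:37376403-37421859, GRCm38) had 1914 and 2105 normalized counts in the controls and 1144 and 1214 in Prmt5sKO. Kif15 (ENSMUSG00000036768, chr9:122951046-123018733) had 877 and 1290 against 310 and 361. For both genes the libraries of the groups were well apart, and the Prmt5sKO libraries lay close together. The log2 fold change was -0.77 (SE 0.20, adjusted p = 0.272 in limma-voom) for Kif11 and -1.67 (SE 0.29, adjusted p = 0.206) for Kif15, which was 3.19-fold lower. These are the genes whose promoters, shown above, hold TTCAAA at the same distance from the RefSeq start. Tpx2, which recruits Kif11 to spindle microtubules, had 3318 and 3787 against 2201 and 2152, a log2 fold change of -0.70 (SE 0.20, adjusted p = 0.285 in limma-voom).

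Kif4 and Kif22 encode chromokinesins, which bind chromosome arms and push them toward the middle of the spindle. Kif22 (ENSMUSG00000030677, chr7:127027729-127042471) had 703 and 1066 normalized counts in the controls and 427 and 321 in Prmt5sKO, a log2 fold change of -1.20 (SE 0.31, adjusted p = 0.268 in limma-voom). Kif4 (ENSMUSG00000034311, chrX:100625737-100727214) had 1362 and 1936 against 792 and 819, a log2 fold change of -1.01 (SE 0.25, adjusted p = 0.261). Both were higher in the shallower than in the deeper control library, and neither overlapped between groups. Kif4 is X-linked, and the Xist-high libraries were the deeper control and the shallower Prmt5sKO library, so 1 of each group. Of the exon bases of Kif4, 15.1% are shared with Pdzd11 on the opposite strand, which had 596 and 569 against 320 and 479. Whether the authors' counting used strand is not given in the sources used here.

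Kif2c, Kif18a and Kif18b encode motors that shorten or cap microtubule plus ends, at the kinetochore in the case of Kif2c (MCAK) and Kif18a. Kif2c (ENSMUSG00000028678) had 1557 and 1934 normalized counts in the controls and 1081 and 871 in Prmt5sKO. Kif18b had 1434 and 1240 against 999 and 851. Kif18a had 340 and 379 against 274 and 187. Each was lower in both Prmt5sKO libraries, and Kif18a and Kif18b were those with the smallest differences among the 11. The log2 fold changes were -0.83 (SE 0.23) for Kif2c, -0.53 (SE 0.22) for Kif18b and -0.63 (SE 0.31) for Kif18a, with adjusted p-values of 0.280, 0.383 and 0.425 in limma-voom.

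Kif20a, Kif20b, Kif23 and Kif14 encode motors of the central spindle and the midbody, where the daughter cells separate. Kif20a (MKLP2), which brings the chromosomal passenger complex to the central spindle, had 2331 and 2104 normalized counts in the controls and 1163 and 1300 in Prmt5sKO, a log2 fold change of -0.85 (SE 0.20, adjusted p = 0.256 in limma-voom). Kif23 (MKLP1), the motor of the centralspindlin complex, had 2175 and 1826 against 1305 and 1047, a log2 fold change of -0.77 (SE 0.22, adjusted p = 0.295). Kif14, which acts with citron kinase and Prc1 at the midbody, had 536 and 954 against 299 and 333, a log2 fold change of -1.17 (SE 0.34, adjusted p = 0.295). The groups were apart for these 3 genes. Kif20b had 773 and 1279 against 776 and 440, a log2 fold change of -0.74 (SE 0.37, adjusted p = 0.444), and its deeper libraries stood at the same level. Of the exon bases of Kif20a, 29.3% are shared with Cdc23 on the opposite strand, which had 1278 and 1322 against 901 and 1187.

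The partners of these motors were lower in Prmt5sKO too. Racgap1, the other subunit of centralspindlin, had 3481 and 4044 normalized counts in the controls and 2547 and 2320 in Prmt5sKO (log2 fold change -0.63, SE 0.20). Prc1, which bundles the antiparallel microtubules of the midzone, had 2707 and 2675 against 2031 and 1795 (-0.50, SE 0.20). Cit, which encodes citron kinase, had 1381 and 2129 against 783 and 537 (-1.39, SE 0.31). Their adjusted p-values were 0.323, 0.376 and 0.248 in limma-voom. Of the 14 genes listed as partners of mitotic kinesins, 12 were lower in both Prmt5sKO libraries and 11 had an unadjusted p under 0.05, all in the lower direction, against 23.6% and 6.95% of all genes tested, with a median log2 fold change of -0.79. The exceptions to the first count were Hmmr and Numa1, whose groups overlapped.

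Cenpe and Kifc1, the mitotic motors listed outside the symbol rule, differed from each other. Cenpe, the kinetochore motor CENP-E, had 2214 and 2954 normalized counts in the controls and 1729 and 1204 in Prmt5sKO, a log2 fold change of -0.82 (SE 0.27, adjusted p = 0.323 in limma-voom), within the range of the mitotic kinesins above. Kifc1, the minus-end-directed motor HSET, had 900 and 817 against 1007 and 942, a log2 fold change of 0.18 (SE 0.21, adjusted p = 0.713), and was slightly higher in both Prmt5sKO libraries.

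In most transport kinesins the groups overlapped. Of 13, 5 were higher in both Prmt5sKO libraries (Kif3a, Kif3b, Kif13a, Kif13b and Kif17), 1 was lower in both (Kif3c), and in 7 the groups overlapped, where 25.2% of all genes tested were higher and 23.6% lower in both. Kif17 passed the filter on low counts largely through the Prmt5sKO libraries and so could not have been counted as lower. None of the 13 had an unadjusted p under 0.05, and adjusted p-values ran from 0.388 to 0.991 (limma-voom). The median log2 fold change was 0.32, with a range from -0.16 for Kif1c to 1.63 for Kif17, and it was 0.17 without the shallower control library. Scaling by library size alone moved the median of all genes from 0.02 to 0.13 and that of the transport kinesins to 0.42.

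**Figure D2:**
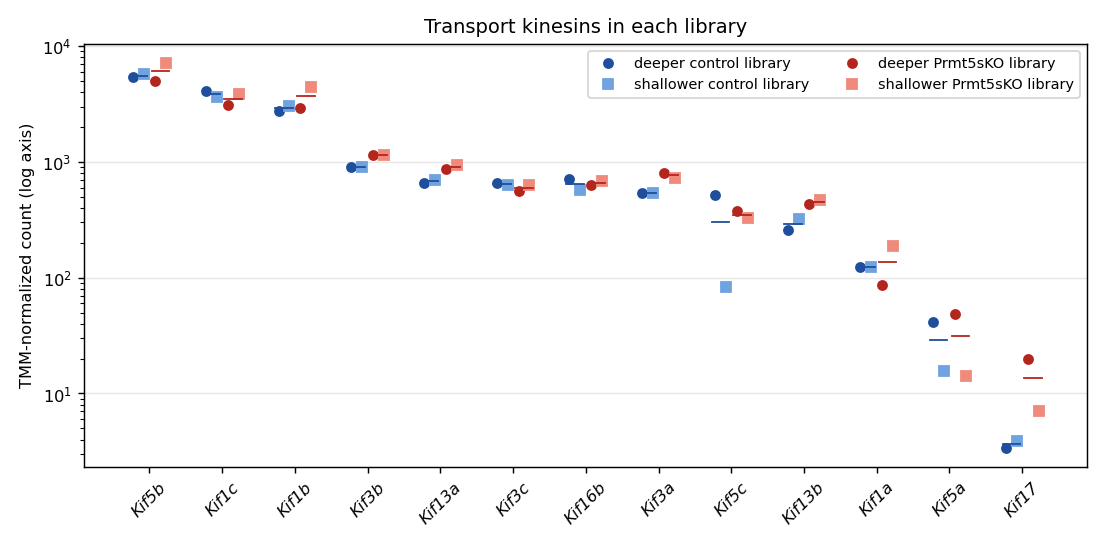
TMM-normalized counts (log axis) of the 13 transport kinesin genes in each of the 4 libraries, ordered by control level, with a short line at the mean of each group. The points of the groups interleave for 7 genes, Kif3a, Kif3b, Kif13a, Kif13b and Kif17 are higher in both Prmt5sKO libraries, and Kif5c is far lower in the shallower control library (83.0) than in the other 3.

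Kif5a, Kif5b and Kif5c encode the heavy chains of kinesin-1, the motor of mitochondria and many vesicles, of which Kif5b is the broadly expressed form. Kif5b had 5370 and 5724 normalized counts in the controls and 5022 and 7108 in Prmt5sKO, a log2 fold change of 0.11 (SE 0.24). Kif5a had 41.8 and 15.6 against 48.2 and 14.1, a log2 fold change of 0.08 (SE 0.88). Kif5c had 521 and 83.0 against 377 and 325, a log2 fold change of 0.69 (SE 0.73). In all 3 the groups overlapped. The spread between libraries of 1 group exceeded the difference between groups, and the sign turned when 1 library was left out. Without the shallower control library the log2 fold change was -0.56 for Kif5c and -0.58 for Kif5a, without the deeper Prmt5sKO library it was -0.88 for Kif5a, and without the shallower Prmt5sKO library it was -0.14 for Kif5b. The kinesin-1 light chains Klc1 (3455 and 3137 against 2130 and 3854) and Klc2 (839 and 655 against 711 and 878), which tie the motor to its cargo, also overlapped between groups.

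Kif3a, Kif3b, Kif3c and Kif17 encode kinesin-2 motors, which build primary cilia and carry vesicles. Kif3a had 540 and 533 normalized counts in the controls and 803 and 722 in Prmt5sKO. Kif3b, its usual partner, had 903 and 899 against 1147 and 1148. Both genes were higher in both Prmt5sKO libraries, with narrow spreads in each group. The log2 fold change was 0.51 (SE 0.22, adjusted p = 0.396 in limma-voom) for Kif3a and 0.35 (SE 0.20, adjusted p = 0.484) for Kif3b. Kifap3, the adaptor that completes the Kif3a and Kif3b motor, had 927 and 952 against 1596 and 2069. Its log2 fold change was 0.95 (SE 0.23, unadjusted p = 0.00555 and adjusted p = 0.256 in limma-voom). All 3 parts of this heterotrimer were higher in both Prmt5sKO libraries, where 25.2% of all genes tested were. Kif3c, the alternative partner of Kif3a, had 662 and 633 against 564 and 632, a log2 fold change of -0.12 (SE 0.22). Its libraries barely separated, and 40.7% of its exon bases are shared with genes on the opposite strand. Kif17 had 6 reads in the controls together and 34 in Prmt5sKO, a ratio of 4.003 after scaling by effective library size (95% interval 1.66 to 11.7, counting error only), and it passed the filter on low counts largely through the Prmt5sKO libraries.

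Kif1a, Kif1b, Kif1c, Kif13a, Kif13b and Kif16b encode kinesin-3 motors, which carry vesicle precursors, mitochondria and endosomes. Kif13a had 660 and 702 normalized counts in the controls and 861 and 940 in Prmt5sKO, a log2 fold change of 0.40 (SE 0.21, adjusted p = 0.458 in limma-voom). Kif13b had 260 and 320 against 432 and 465, a log2 fold change of 0.64 (SE 0.26, adjusted p = 0.388). The groups were apart for both genes. Kif1b had 2770 and 3022 against 2911 and 4441 (log2 fold change 0.32, SE 0.26), and the high value was that of the shallower Prmt5sKO library. Kif1c had 4104 and 3622 against 3076 and 3840 (-0.16, SE 0.22). Kif16b had 710 and 571 against 636 and 682 (0.04, SE 0.23). Kif1a had 123 and 124 against 86.7 and 189 (-0.02, SE 0.49). The 4 genes overlapped between groups, and the sign for Kif1a and Kif16b changed with the setting or the library left out.

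**Figure D3:**
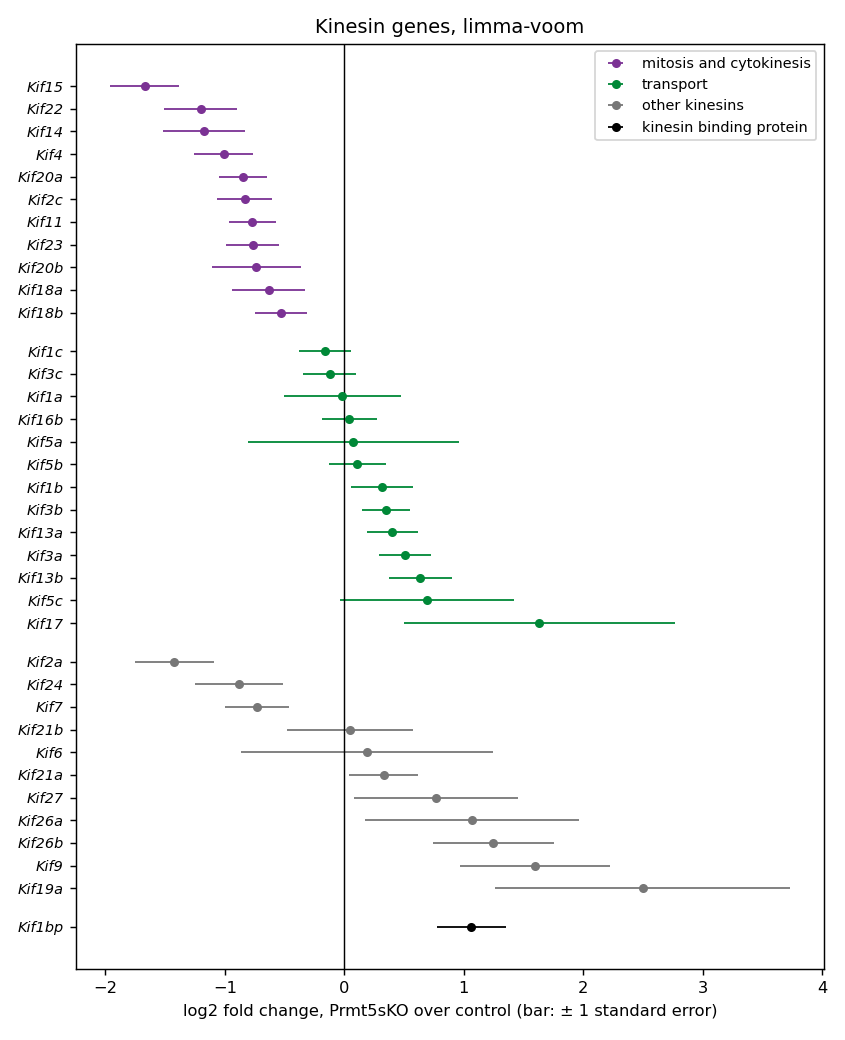
Log2 fold change (Prmt5sKO over control, limma-voom) of the 36 tested kinesin genes, grouped by role, with bars of 1 standard error. The 11 mitotic kinesins lie between -1.67 and -0.53, the 13 transport kinesins between -0.16 and 1.63, and the other kinesins between -1.42 (Kif2a) and 1.60 (Kif9), apart from Kif19a (2.50), which had 2 reads in the controls together.

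The kinesins with other roles had no common direction. Of the 11 tested, 3 were lower in both Prmt5sKO libraries and 5 higher, where 23.6% and 25.2% of all genes tested were. The 5 include Kif19a, which passed the filter on low counts through the Prmt5sKO libraries alone and so could not have been counted as lower. Kif2a, a microtubule depolymerase of spindle poles and of growing cell processes, had 1174 and 2135 normalized counts in the controls and 608 and 569 in Prmt5sKO, a log2 fold change of -1.42 (SE 0.33, unadjusted p = 0.00474 and adjusted p = 0.251 in limma-voom). It was 2.68-fold lower, the shallower control library being the highest. Kif2a shares 19.2% of its exon bases with Dimt1 on the opposite strand, which had 262 and 220 against 231 and 135. Kif24, a centriolar kinesin that restrains cilium formation, had 589 and 1035 against 343 and 534, a log2 fold change of -0.88 (SE 0.37, adjusted p = 0.390). Kif7, the ciliary kinesin of Hedgehog signalling, had 422 and 376 against 225 and 260, a log2 fold change of -0.73 (SE 0.26, unadjusted p = 0.0326 and adjusted p = 0.347 in limma-voom). The groups were apart for all 3. Kif7 shares 20.3% of its exon bases with genes on the opposite strand (19.1% with 9330171B17Rik and 1.11% with Ticrr). Ticrr had 992 and 1171 against 347 and 376, and 9330171B17Rik was not analysed here.

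On the higher side, Kif9, which is found in motile cilia and flagella, had 15.8 and 16.9 normalized counts in the controls and 46.7 and 56.3 in Prmt5sKO, a log2 fold change of 1.60 (SE 0.63, unadjusted p = 0.0431 and adjusted p = 0.369 in limma-voom). Kif26b, a kinesin-like protein known for its role in kidney development, had 244 and 144 against 320 and 672, a log2 fold change of 1.25 (SE 0.51, unadjusted p = 0.0486 and adjusted p = 0.384). Kif1bp, the kinesin binding protein, which keeps a subset of kinesin motors off microtubules, had 450 and 284 against 774 and 737, a log2 fold change of 1.06 (SE 0.29, unadjusted p = 0.00978 and adjusted p = 0.276). The groups were apart for each, and the 2 libraries of Prmt5sKO were far apart for Kif26b, whose value was highest in the library with the most muscle marker RNA. The part of differentiation in that value was not tested. Kif19a, a depolymerase of ciliary microtubules, had 1 read in each control library and 12 and 11 in Prmt5sKO (ratio 8.12, 95% interval 2.01 to 71.1), and passed the filter on low counts through the Prmt5sKO libraries alone. Reads of Kif26a numbered 11 in the controls and 35 in Prmt5sKO (ratio 2.25, 95% interval 1.12 to 4.91). These intervals cover counting error only. Kif27, a paralogue of Kif7, was higher in both Prmt5sKO libraries with 13.6 and 16.9 against 28.9 and 23.1, while Kif6, Kif21a and Kif21b overlapped, with log2 fold changes from 0.05 to 0.33. The sign for Kif21b turned between settings. Kif28 had 1 and 0 reads in the controls and 1 and 3 in Prmt5sKO and was not tested.

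When the classes were summed, the mitotic sum and its ratio to the transport sum were lower in both Prmt5sKO libraries. The mitotic kinesins together took 858 and 938 CPM (reads scaled to the library total) in the controls and 577 and 476 CPM in Prmt5sKO. The transport kinesins took 1022 and 946 CPM against 1076 and 1260 CPM. Both Prmt5sKO libraries had less of the first class than either control library. For the second class the separation of the groups depended on the scaling. In CPM both Prmt5sKO libraries were above both controls. The TMM-normalized sum was 16669 and 16252 in the controls and 15983 and 20512 in Prmt5sKO, and the sum per kilobase was 2067 and 1983 against 2004 and 2457. By these the groups overlapped. Summed as normalized counts per kilobase of exon, so that genes of unlike length weigh alike, mitotic over transport kinesins gave a ratio of 1.21 and 1.41 in the controls and 0.769 and 0.567 in Prmt5sKO. Against the control mean, the median log2 difference over the mitotic kinesins was -0.81 and -1.003 in the deeper and shallower Prmt5sKO library, and that over the transport kinesins 0.32 and 0.36, where the medians over all genes were -0.0046 and -0.0097. The difference of the class medians in the fit was -1.15, and lay between -1.38 and -0.92 when any 1 library was left out. The shallower Prmt5sKO library, with the lowest class ratio, also had the highest sum of differentiated muscle markers. In the deeper Prmt5sKO library that sum (46064) was below both controls (50286 and 96298). Without Ttn, left out after its values were seen, the sum of the deeper Prmt5sKO library (17637) was above both controls (11137 and 6265). The part of these markers in the class ratio was not tested.

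**Figure D4:**
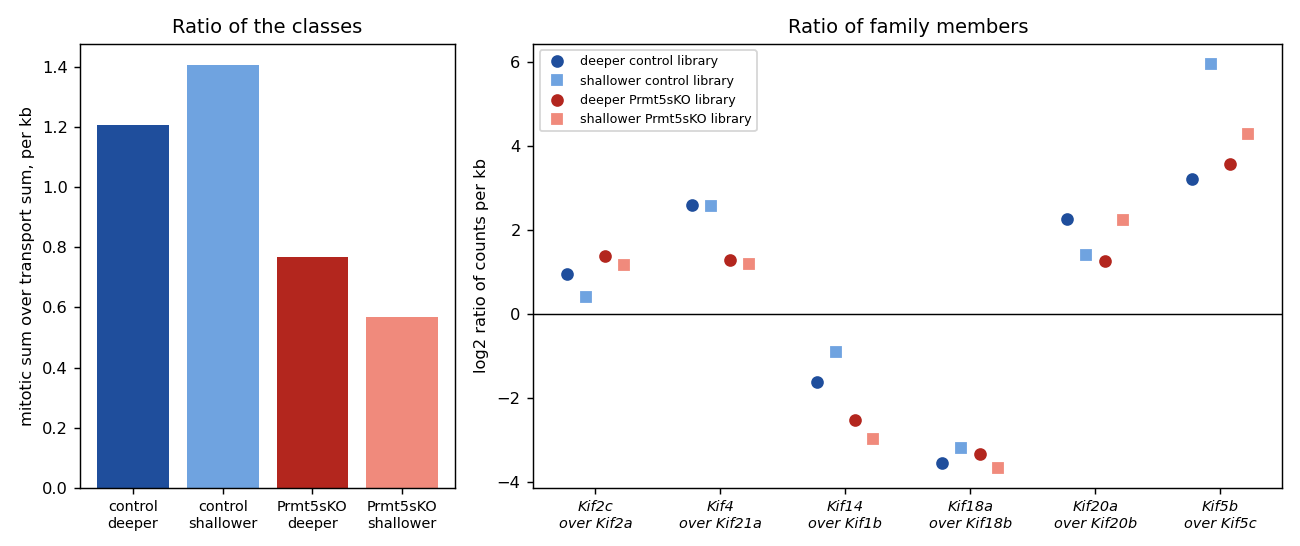
Left, summed mitotic over summed transport kinesins (normalized counts per kilobase of exon) as 1 bar for each library, which stood at 1.21 and 1.41 in the controls and 0.769 and 0.567 in Prmt5sKO. Right, log2 ratio of 2 motors of the same or a related kinesin family in each library, where the groups are apart for Kif4 over Kif21a, Kif14 over Kif1b and Kif2c over Kif2a and overlap for the other 3 pairs.

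Pairs of related motors were set against each other within each library, which removes the scaling. As listed here, the motors of a pair were of unlike class for Kif4 with Kif21a, Kif14 with Kif1b and Kif2c with Kif2a. They were of the same class for Kif18a with Kif18b, Kif20a with Kif20b and Kif5b with Kif5c. Kif4 and Kif21a belong to the kinesin-4 family, and Kif21a acts on microtubule growth outside mitosis. The log2 ratio of Kif4 to Kif21a per kilobase was 2.59 and 2.57 in the controls and 1.30 and 1.19 in Prmt5sKO, a difference of -1.34 between the group means. Kif14 and Kif1b are both of the kinesin-3 family, and their log2 ratio was -1.60 and -0.90 in the controls against -2.52 and -2.97. In these pairs the mitotic member was lower relative to the other in both Prmt5sKO libraries. In the kinesin-13 family Kif2a was lower by more than Kif2c. The log2 ratio of Kif2c to Kif2a was 0.96 and 0.41 in the controls against 1.38 and 1.16 in Prmt5sKO. Kif2a was listed with the other roles but also acts at spindle poles. Its pair with Kif2c therefore does not set a mitotic motor against a motor without a role in mitosis. The ratios of Kif18a to Kif18b, of Kif20a to Kif20b and of Kif5b to Kif5c overlapped between the groups. The last of these ranged over more than any other pair, from 3.21 to 5.95 within the controls alone.

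By level per kilobase of exon, Kif5b (695 normalized counts per kilobase, mean of the controls) and Kif1c (531) stood first and second in the controls and again in Prmt5sKO (760 and 475). These transport motors made up 59.8% and 61.3% of the summed transport kinesins per kilobase in the controls and 52.5% and 57.7% in Prmt5sKO. In the controls the mitotic kinesins Kif20a (511), Kif2c (400), Kif18b (374), Kif4 (299) and Kif11 (269) followed, ahead of Kif1b (164), Kif3b (160) and Kif3a (150). In Prmt5sKO, Kif3a (213), Kif1b (209) and Kif3b (204) came ahead of Kif11 (158) and Kif4 (146), and behind Kif20a (284), Kif18b (259) and Kif2c (224). Kif15 moved from place 16 to place 27 of 37 and Kif2a from place 8 to place 14, while Kif1bp moved from place 20 to place 10. The lowest places were held by Kif6, Kif17, Kif19a, Kif26a and Kif28, of which Kif17 had the highest mean (2.95 normalized counts per kilobase, in Prmt5sKO).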

How the data were processed

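Total RNA of cultured MuSC (2 samples per genotype, control and Prmt5sKO) was depleted of ribosomal RNA and sequenced on an Ion Torrent Proton. Reads were trimmed (Reaper), aligned to GRCm38 (STAR 2.4.0a) and counted per gene (featureCounts, reads with several positions left out) by the authors, and normalized with DESeq2 (version 1.62 per the labels). Whether counting used strand is not given in the sources used here. The deposited signal is, for each group, a mean over its libraries of counts divided by size factors, made by the authors. The deposited columns of fold changes and p-values hold the authors' own comparison and were not used.

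Each such mean is built from 2 step sizes, 1 per library, taken a whole number of times. Solving for these numbers gave whole reads per library for 100% of genes in both groups (largest relative residual 5.2e-15), after the procedure was tested on simulated data. The columns carry no replicate numbers, so libraries are named by depth. Counts were scaled by TMM (own code, trims of 30% and 5%), genes averaging under 5 normalized counts were dropped, and limma-voom (limma 3.58.1, R 4.3.3) compared the groups, two-sided, with Benjamini-Hochberg adjustment over all genes tested. Calls needed an adjusted p no higher than 0.05 together with a 2-fold change. The kinesin set, the gene lists and the tests were chosen with earlier results of these data known. Named were every mitotic and transport kinesin, of the others those with an unadjusted p under 0.05 or a 2-fold change (the rest by range, with Kif24 and Kif27 added after their values were seen), and motors, adaptors and partners that act with a named kinesin. Lists are described by counts and medians, with no set test. The 95% intervals of low counts are exact conditional intervals. Gene models were from GENCODE M21, which held 19782 of the 20065 identifiers, and promoters from RefSeq. Alternatives were other scalings, no filter, limma-trend, both pairings of the libraries as a replicate block, and leaving out each library.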

Additional observations from a re-analysis of the deposited data

How the results depend on the processing

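Over 11 alternatives (3 scalings, no filter on low counts, limma-trend, a replicate block in both pairings, and leaving out each of the 4 libraries) the mitotic median stayed negative and the transport median positive. The transport median was 0.42 when scaled by library size only. The columns carry no replicate numbers, and within-group differences correlated by -0.238 over 10398 genes when the deeper libraries were paired, and with the sign turned when crossed. The crossed pairing joins libraries of like Xist level, and the labels give neither pairing. With the replicate block and the deeper libraries paired, limma-voom called 0 genes, and with the crossed replicate block 346 (2.13% of genes), among them Kif15 (-1.70, adjusted p = 0.0304), Kif2a (-1.46, adjusted p = 0.0348) and Kif22 (-1.24, adjusted p = 0.0459). The block in either pairing left 12 and 16 kinesins at an unadjusted p under 0.05, and no other kinesin call changed. Over all alternatives the adjusted p of these genes reached 0.968, without the shallower control library.

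Leaving out 1 library assumes that the lone library varies like those of the other group. The genes called then ranged from 0 to 489 (489 without the deeper and 55 without the shallower Prmt5sKO library, 0 without either control), the mitotic median from -1.005 to -0.75, the transport median from 0.17 to 0.39, the difference of medians from -1.38 to -0.92, the mitotic kinesins lower in both Prmt5sKO libraries from 10 to 11, and the kinesins at an unadjusted p under 0.05 from 4 (without the shallower control) to 15. Kif26b was called without the deeper Prmt5sKO library (1.82, adjusted p = 0.045, reaching 0.968 over its alternatives). Signs turned for Kif1a, at 0.11 by library size only, 0.046 in limma-trend, and 0.080 and 0.12 with the replicate block, deeper paired and crossed, and from -0.52 to 0.61 with a library left out. They also turned for Kif21b, at -0.0042 in limma-trend, -0.00061 and -0.058 with the block, and from -0.72 to 0.74 with a library left out, and, with a library left out, for Kif5c (-0.56 to 2.06), Kif5a (-0.88 to 0.85), Kif5b (-0.14 to 0.36) and Kif16b (-0.10 to 0.19). The cause of these changes was not tested. The depth limits Kif6, Kif17, Kif19a, Kif26a and Kif28.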

Other observations

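Cytoplasmic dynein, the motor that carries cargo in the direction opposite to most kinesins, was described for comparison. Of 12 genes of dynein and its activator dynactin, 8 were higher in both Prmt5sKO libraries and 0 were lower in both, where 25.2% and 23.6% of all genes tested were. The median log2 fold change was 0.31, and 4 overlapped between groups. Dctn3 stood at 409 and 363 normalized counts in the controls (deeper, then shallower) and 605 and 560 in Prmt5sKO, and Dync1h1, the dynein heavy chain, had 19322 and 20209 against 19413 and 15591. Unadjusted p-values under 0.05 in limma-voom were found for Dctn3 (adjusted p = 0.377) and Dctn4 (adjusted p = 0.355). Dync1i1, an intermediate chain, had 57.6 and 48.0 against 119 and 404.

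Of the 9 tested genes listed as cargo adaptors of transport kinesins, 3 were higher in both Prmt5sKO libraries (Kifap3, Klc3 and Klc4), 1 was lower in both (Trak2), and 5 overlapped, where 25.2% of all genes tested were higher and 23.6% lower in both. Klc4, a kinesin light chain, had 166 and 141 normalized counts in the controls against 365 and 307, a log2 fold change of 1.13 (SE 0.31, adjusted p = 0.280 in limma-voom). Trak1, which ties kinesin-1 to mitochondria, had 972 and 2408 against 1419 and 1003, so that the control libraries lay further apart than the groups. Among other motors outside the symbol rule, Stard9 had 272 and 244 against 788 and 329, a log2 fold change of 1.02 (SE 0.50, adjusted p = 0.429 in limma-voom). Kifc2 had 24.9 and 18.2 against 35.6 and 26.1 (0.51, SE 0.64), and Kifc3 had 1953 and 1621 against 1667 and 1408 (-0.22, SE 0.22). Stard9 and Kifc2 were higher in both Prmt5sKO libraries, and Kifc3 overlapped between groups. Stard9 was listed here apart from the mitotic motors Cenpe and Kifc1, which does not mean that it has no role in mitosis. Like Stard9, Kifc1 was higher in both Prmt5sKO libraries, while Cenpe was lower in both.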
